A study of Homo sapiens with 3 samples.

Results

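MATR3 (matrin 3), a nuclear matrix protein that binds RNA and DNA, was profiled in HEK293 cells, and the intron clusters described here are those found in all 3 replicates. An intron cluster was chosen by its position alone. It had to carry the authors' intron annotation and to overlap, by at least 1 nt on the same chromosome and strand, an intron cluster in each of the other replicates. The rule selected 2313 of 96497 intron clusters in replicate 1 (2.40%), 2393 of 95588 in replicate 2 (2.50%) and 2243 of 90181 in replicate 3 (2.49%). Because the rule used this overlap, these shares are descriptions and carry no test. In all, 6949 of 282266 intron clusters were selected, out of 388807 clusters of every class. The comparison set was the 76111, 75607 and 70150 intron clusters of replicates 1, 2 and 3 that overlapped an intron cluster in neither other replicate.

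The 3 libraries were biological replicates of 1 group, made with an antibody against MATR3 from HEK293 cells of wild-type genotype with no treatment. HEK293 is an established human embryonic kidney line, and the labels give its tissue as kidney. All 3 libraries share the antibody and the line, and no library without the antibody or without MATR3 was analysed here. Background from RNA abundance and from nonspecific recovery was therefore not measured. The identity of the cells could not be checked, since a cluster table does not give transcript levels.

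MATR3 carries RNA recognition motifs and zinc fingers, and it is known to bind pyrimidine-rich stretches in introns and to act in splicing, including the repression of exons near its sites. In PAR-CLIP, cells take up a photoreactive nucleoside, bound RNA is crosslinked with long-wave ultraviolet light and recovered with the protein, and crosslinked uridines are read as T-to-C changes. Introns are removed from the transcript soon after synthesis, so reads in them come mostly from nuclear RNA that has not yet been spliced.

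The sequences shared by all 3 replicates are shown for the leading sites, to let the base content described further on be read directly. Selected clusters that overlapped each other were merged into sites, and the 10 sites with the largest geometric mean of reads over the replicates were taken. A stretch of 20 to 300 nt covered in all 3 replicates was found at 8 of them, and 7 are printed. The stretch of the JRK site, of 165 nt, is not shown here. Each is the RNA strand from hg38, 5′ to 3′, and capitals mark runs of at least 6 pyrimidines.
NOP14: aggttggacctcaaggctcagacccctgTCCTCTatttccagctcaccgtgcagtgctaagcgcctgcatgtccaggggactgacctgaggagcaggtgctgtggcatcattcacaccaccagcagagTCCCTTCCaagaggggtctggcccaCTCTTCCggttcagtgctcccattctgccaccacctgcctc
WDR82: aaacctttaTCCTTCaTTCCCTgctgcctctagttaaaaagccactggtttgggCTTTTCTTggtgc
SLAIN2: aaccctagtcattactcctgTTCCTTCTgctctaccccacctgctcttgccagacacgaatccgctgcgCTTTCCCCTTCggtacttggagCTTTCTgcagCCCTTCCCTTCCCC
BCAT1: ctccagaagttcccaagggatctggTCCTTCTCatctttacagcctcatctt
AJUBA: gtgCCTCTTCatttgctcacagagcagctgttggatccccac
PRKAA1: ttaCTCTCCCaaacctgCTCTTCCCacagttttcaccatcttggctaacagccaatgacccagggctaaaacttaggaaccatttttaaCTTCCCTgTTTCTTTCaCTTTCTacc
ZC3H18: aaattgtttaaaccacatagcttgtgc

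These stretches lie on hg38 at chr4:2943169-2943362 (NOP14, minus strand), chr3:52264410-52264476 (WDR82, minus strand), chr4:48410505-48410619 (SLAIN2, plus strand), chr12:24937367-24937418 (BCAT1, minus strand), chr14:22978217-22978258 (AJUBA, minus strand), chr5:40776246-40776360 (PRKAA1, minus strand) and chr16:88581430-88581456 (ZC3H18, plus strand). Pyrimidines made up 72.2% of the SLAIN2 stretch, the highest share of the 7 printed, and 51.9% of the ZC3H18 stretch, the lowest. The PRKAA1 stretch held 5 runs of at least 6 pyrimidines and the ZC3H18 stretch held 0. ATCTT, the DNA form of the AUCUU element known for MATR3, occurred 2 times in the BCAT1 stretch, 1 time in the PRKAA1 stretch and 0 times in the other 5. No such letters in a stretch says only that they are not in this window.

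The site with the largest geometric mean of reads lay in DHX30, which encodes an RNA helicase of mitochondrial ribosome assembly. It had 81, 200 and 228 reads in replicates 1, 2 and 3, at chr3:47832083-47832446 in an intron of 11742 nt, and only 1 nt of it was covered in all 3 replicates. NOP14, a factor of small ribosomal subunit assembly, had 163, 185 and 106 reads in an intron of 1721 nt, and its common stretch of 194 nt was the longest of all sites. WDR82, a subunit of histone H3 lysine 4 methyltransferase complexes, had 112, 126 and 117 reads. Of these 3 sites, WDR82 was the most even between replicates in reads, and DHX30 was low in replicate 1. Distinct reads at WDR82 were less even, at 37, 59 and 45.

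SLAIN2, which encodes a microtubule plus-end protein, had 194, 65 and 126 reads. RANBP3, a Ran-binding cofactor of nuclear export, had 47, 264 and 122 reads and no base covered in all 3 replicates. BCAT1, the cytosolic branched-chain amino acid transaminase, had 178, 194 and 38 reads in an intron of 47041 nt. The lowest library was thus replicate 2 at SLAIN2, replicate 1 at RANBP3 and replicate 3 at BCAT1, so no single library was low at all of them.

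AJUBA, which encodes a LIM-domain scaffold protein, had 111, 135 and 85 reads at a site that began 22 nt from the 5′ splice site of an intron of 1631 nt, where the distance is that of the cluster with most reads. PRKAA1, a catalytic subunit of the energy sensor AMPK, had 143, 157 and 46 reads. ZC3H18, a zinc finger protein of nuclear RNA decay, had 48, 136 and 127 reads. JRK had 59, 153 and 135 reads. At none of the 10 did the cluster with most reads overlap an exon in GENCODE 44, and none overlapped an annotated pseudogene or small RNA gene. Reads with T-to-C made up between 60% (SLAIN2, replicate 2) and 87.0% (PRKAA1, replicate 3) of the reads at these sites.

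**Figure D1:**
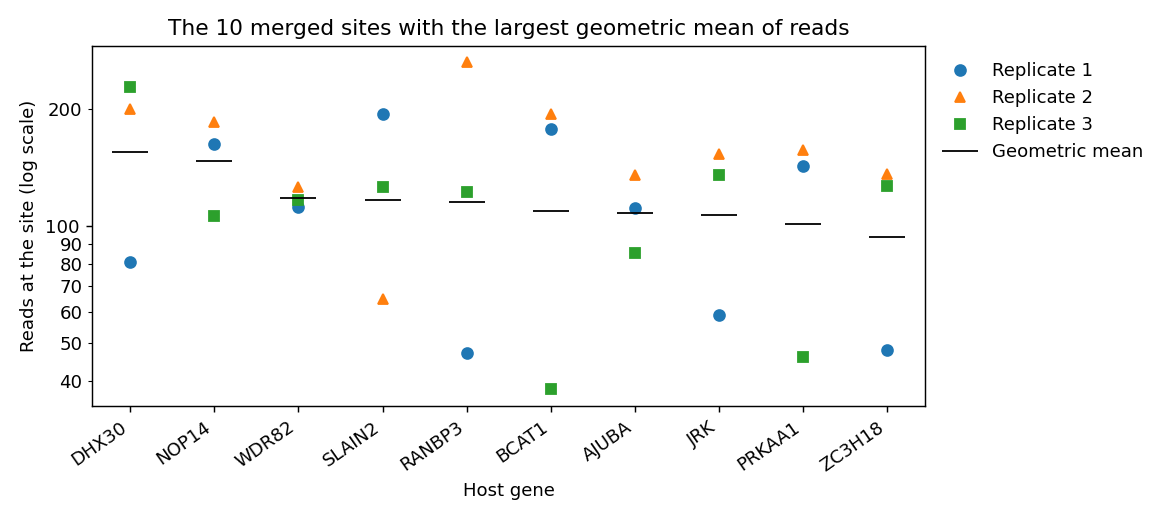
Reads at the 10 merged intron sites with the largest geometric mean of reads, by host gene; the y axis is logarithmic, symbols are the 3 replicates and bars the geometric mean. WDR82 is the most even, with 112 to 126 reads, and RANBP3 spreads from 47 to 264.

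The merged sites numbered 2908, in 1848 gene names, and 1908 of them (65.6%) had at least 1 nt covered in all 3 replicates. The others were bridged: a longer cluster overlapped a cluster of each other replicate at places that did not overlap each other. The common stretch had a median of 30 nt (quartiles 18 and 37). Member clusters came from all 3 replicates at 1912 sites, from 2 at 42 sites and from 1 at 954 sites. Within 10 nt of the threshold, 348, 358 and 356 clusters of replicates 1, 2 and 3 were inside, with a smaller overlap of 1 to 10 nt, and 730, 759 and 755 were outside by no more than that distance. Their median reads were 13, 12 and 11 inside, and 13, 13 and 12 outside. Cytosine made up 27.5%, 26.8% and 26.8% of their bases inside, and 27.6%, 26.9% and 27.4% outside.

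Reads at a site varied widely between replicates. Summed over the intron clusters that overlapped a site, the median was 16, 16 and 14 reads in replicates 1, 2 and 3. The highest replicate exceeded the lowest by a median of 2.44-fold (quartiles 1.80 and 3.67). At 422 sites (14.5%) the 3 replicates lay within 1.5-fold, and at 359 (12.3%) they differed by more than 5-fold. At least 20 reads in every replicate were found at 322 sites and at least 50 at 22 sites. Across the 2908 sites, Spearman's rho of reads between pairs of replicates lay between 0.274 (1 with 3) and 0.300 (1 with 2). These values pool the sites with a common stretch and the bridged sites, where a longer cluster overlaps separate clusters of the other replicates. The part of bridging in the spread was not tested. Sites are not independent replicates, and share the host gene's abundance, so no p-value is given.

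**Figure D2:**
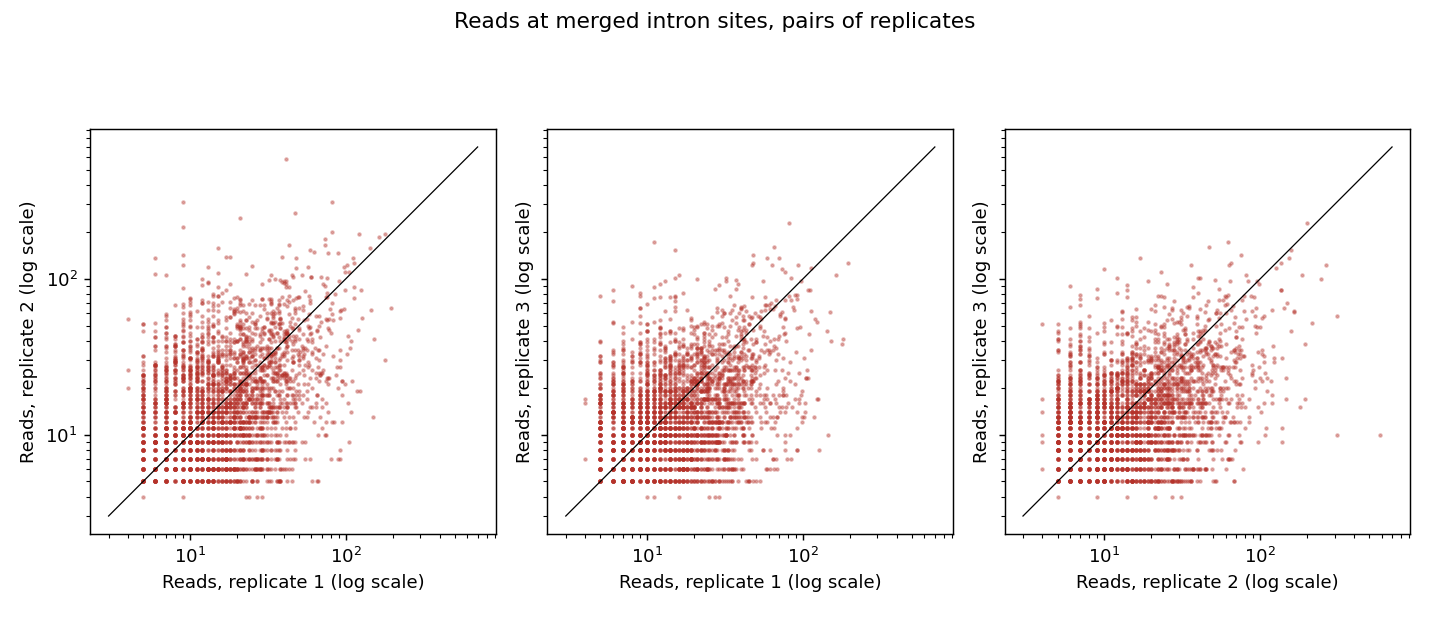
Reads at the 2908 merged intron sites in each pair of replicates, both axes logarithmic; each point is a site and the line marks equal reads. The points scatter broadly about the line, with Spearman's rho from 0.274 to 0.300.

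The position of the mode, the location that the authors give for each cluster, also differed between replicates. At the sites with a common stretch, the modes of the strongest clusters were a median of 33 nt apart between replicates 1 and 2, 30 nt between 1 and 3, and 32 nt between 2 and 3. They were within 10 nt at 20.3%, 21.0% and 20% of these sites. The same nucleotide was the mode at 2.20%, 1.94% and 2.20%.

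Recurrence rose with the length and the reads of a cluster, which is in part what the rule asks for, since a longer interval overlaps more easily. Selected clusters had median lengths of 60, 67 and 50 nt, against 38, 38 and 36 nt for clusters found in neither other replicate. Their median reads were 16, 16 and 14, against 9, 8 and 9. Their median distinct reads were 6, 7 and 5, against 3 in each replicate. At most 2 distinct reads were held by 8.74% ± 3.36 of selected and 39.9% ± 5.36 of comparison clusters (SD, n = 3). For clusters found in exactly 1 other replicate it was 17.3% ± 4.56. Clusters of 30 to 39 nt were selected in 1.04%, 0.995% and 1.45% of cases, and clusters of 150 nt or more in 13.8%, 19.0% and 10.3%. With 40 reads or more, 10.9%, 18.1% and 7.23% were selected. By gene the slope was shallow, from 1.46%, 1.26% and 1.35% where a gene had 1 to 4 intron clusters in the file to 2.89%, 2.95% and 3.40% where it had at least 100.

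**Figure D3:**
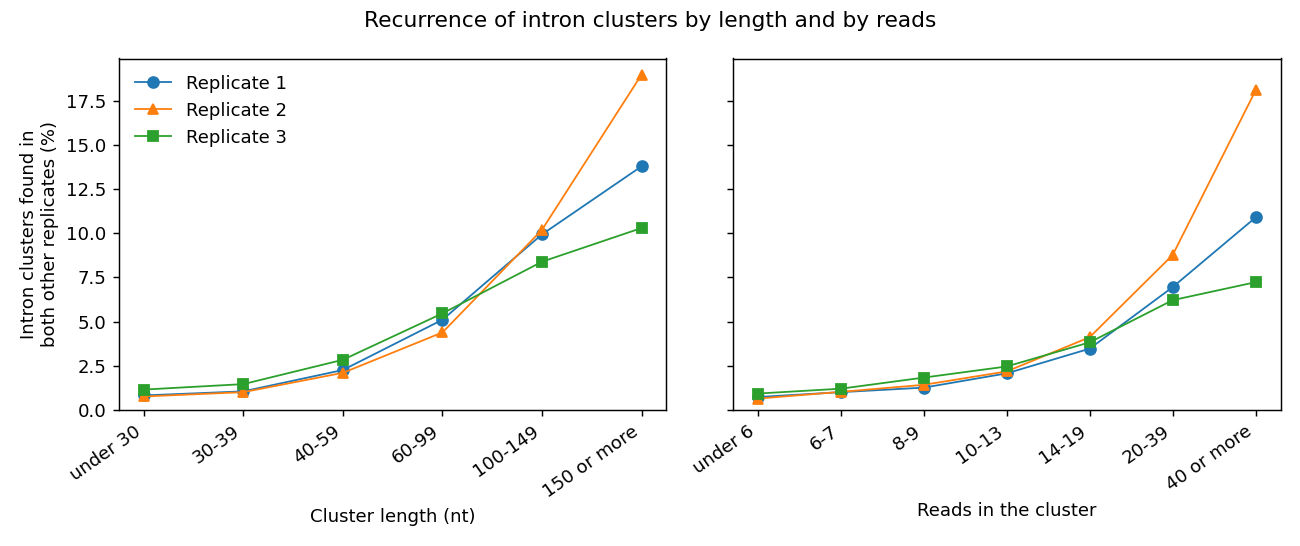
Share of intron clusters found in both other replicates, in percent, by cluster length (left) and reads (right); lines are the 3 replicates. The share rises from about 1% of clusters of 30 to 39 nt to between 10.3% and 19.0% of clusters of 150 nt or more.

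A level for comparison was read by shifting the clusters of 1 replicate at a time by 1000 nt in either direction. The other replicates stayed in place, so their overlap with each other was kept and the level is not set by cluster density alone. After the shift, 0.964%, 1.05% and 1.01% of intron clusters met the rule, so the shares in place were 2.49, 2.38 and 2.47 times as high. The shifted level depends on the distance chosen and carries no test.

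The overlap was also read with each replicate held out in turn, as a description, since the turns reuse the same overlaps between the replicates and the rule rests on them. In the held-out replicate, 20.6% ± 0.439 of clusters shared by the other two were overlapped, against 10.8% ± 0.475 of clusters not shared (SD, n = 3). The difference was 10.1, 9.40 and 10.2 percentage points for replicates 1, 2 and 3. Compared within genes, it was 8.27 points ± 0.393, and with the length make-up of the shared clusters it was 6.36 ± 0.169 (SD, n = 3).

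Selected clusters were richer in cytosine. Cytosine made up 28.3%, 28.3% and 28.6% of their bases in replicates 1, 2 and 3, against 24.9%, 25% and 24.9% in clusters found in neither other replicate, with no overlap between the groups. The difference of 3.43 percentage points ± 0.190 (SD, n = 3) exceeded the spread and had the same sign in each replicate (exact two-sided sign-flip p = 0.25, the smallest that 3 replicates allow; 0.278 after Benjamini-Hochberg adjustment over 10 tests). It was 3.48 points within genes, 2.73 with the members' length make-up and 2.66 with their read make-up, and 1.49 against clusters found in exactly 1 other replicate. It is not particular to the selected clusters, since those that missed the rule by at most 10 nt held as much cytosine as those just inside it. This measure was chosen after the data were seen. Selected clusters came from all 3 replicates at 1912 of the 2908 merged sites, so these 3 values are not independent measurements of sequence. The same holds for every measure of sequence or position given below.

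Thymine, the base that PAR-CLIP reads, did not follow. It made up 31.4%, 30.7% and 31.4% of the bases of selected clusters and 32.7%, 30.8% and 32.6% of the comparison clusters, and replicate 2 of the comparison lay among the selected values. The difference was -0.858 points ± 0.628 (SD, n = 3; exact sign-flip p = 0.25; 0.278 adjusted). Both pyrimidines together made up 59.6% ± 0.509 against 57.0% ± 0.993, a difference of 2.57 points ± 0.527 in 3 of 3 replicates (SD, n = 3; exact sign-flip p = 0.25; 0.278 adjusted). This too is not particular to the selected clusters. Those that missed the rule by at most 10 nt held 59.5%, 57.8% and 58.7% pyrimidines, against 59.3%, 57.7% and 58.4% just inside it. Guanine and cytosine together made up 49.4% ± 0.340 against 46.7% ± 0.864 (SD, n = 3).

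**Figure D4:**
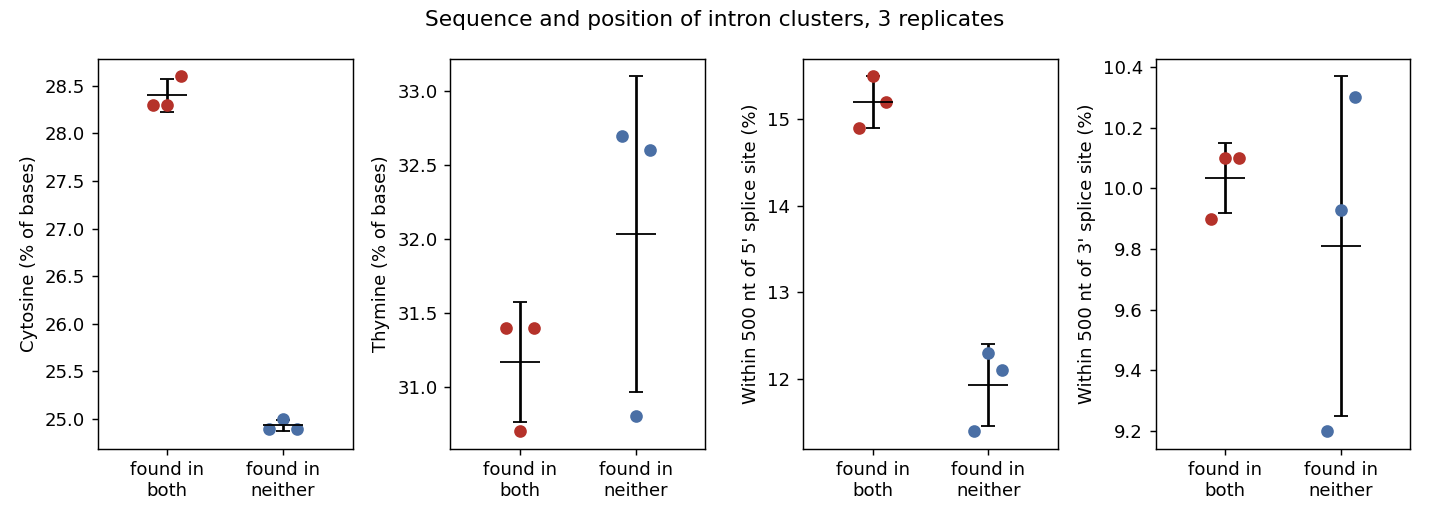
Cytosine and thymine content and the shares of clusters near splice sites, for intron clusters found in both other replicates (red) and in neither (blue); points are the 3 replicates, bars the mean and SD, and the y axes do not start at 0. Cytosine (28.3% to 28.6% against 24.9% to 25%) and the share near the 5′ splice site separate the groups, while thymine and the share near the 3′ splice site overlap.

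The cytosine difference extended beyond the cluster. Within 20 nt of the mode, cytosine was 27.2% ± 0.0940 around selected clusters and 23.8% ± 0.0943 around the comparison clusters (SD, n = 3). At 61 to 100 nt from the mode it was 25.2% ± 0.0401 and 22.4% ± 0.198. Both sets were thus higher near the mode than in the flanks, and the selected set was higher in both zones. Thymine dipped at the mode in both sets. Within 5 nt of it, thymine was 28.2% ± 0.740 around selected and 30.6% ± 1.03 around comparison clusters, against 32.1% ± 0.0926 and 32.4% ± 0.522 in the flanks (SD, n = 3).

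**Figure D5:**
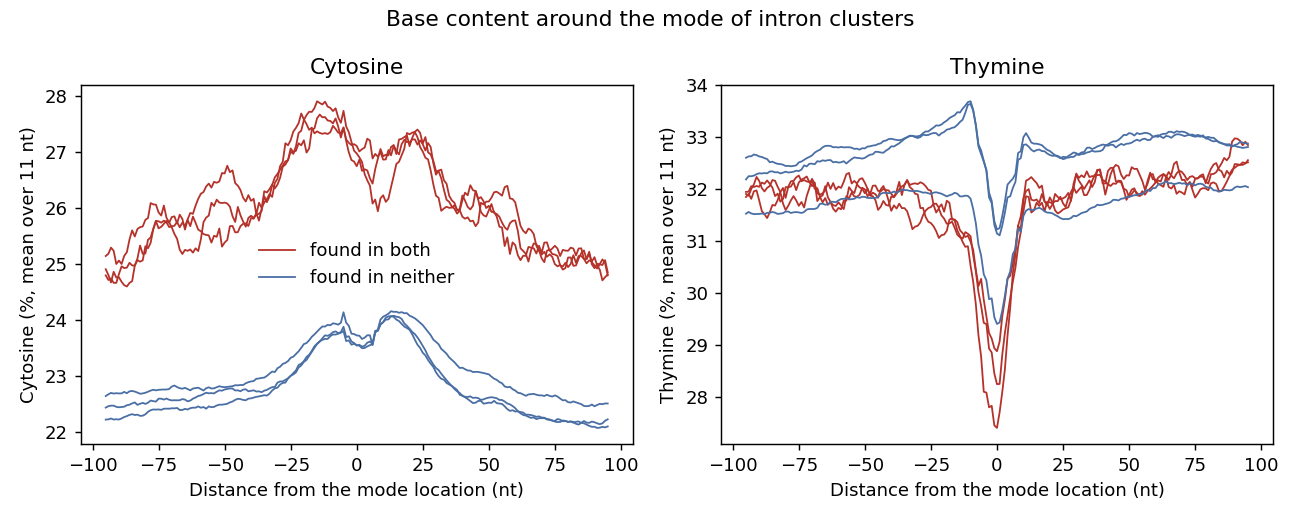
Cytosine (left) and thymine (right) in percent, as a mean over 11 nt, by distance from the mode location in nt; each line is 1 replicate, red for clusters found in both other replicates and blue for those found in neither. The red cytosine lines stay above the blue ones over the whole window, with 27.2% against 23.8% within 20 nt of the mode.

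Among all 1024 sequences of 5 bases, the 10 with the largest mean log2 ratio of density, selected over comparison clusters, all contained CG. On the log2 scale CGCGT, then TCGAC and CGTCC stood at 0.84. They were followed by CCCCG, then CGACC and GCCGC at 0.81, then CGGCG at 0.80 and ACGCG at 0.79. The last were CGCCG at 0.75 and CGCGC at 0.74. Within genes these ratios were lower, between 0.37 (ACGCG) and 0.78 (CGACC), with CGCGT at 0.55 and CGCCG at 0.44, so their order changed. CGCGT gave 1.30, 0.60 and 0.62 in replicates 1, 2 and 3, and GCCGC gave 0.77, 0.81 and 0.84. These words are rare: CGCGT occurred 0.142 times per 1000 windows of 5 bases in selected clusters and 0.0803 times in the comparison clusters. The 244 words with CG together occurred 61.0 against 48.8 times per 1000 windows, a log2 ratio of 0.33 ± 0.0415 (SD, n = 3). The 32 words made only of C and T occurred 123 against 109 times, a log2 ratio of 0.17 ± 0.0541.

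The 5 words with the lowest ratios were GATAG at -1.13, ATATA at -0.95, AGGTA at -0.94, TAATA at -0.93 and GTATA at -0.88. All 32 words made only of A and T had a lower density in selected clusters in 3 of 3 replicates, and together they gave a log2 ratio of -0.51 ± 0.110 (SD, n = 3). Over all 1024 words, 413 were lower and 386 higher in 3 of 3 replicates, so agreement between replicates was common. ATCTT ranked 406 of 1024. Its density was 2.49, 2.43 and 2.69 per 1000 windows in selected clusters and 2.48, 2.16 and 2.50 in comparison clusters, and the groups overlapped. The log2 ratio was 0.09 ± 0.0833 (SD, n = 3; exact sign-flip p = 0.25; 0.278 adjusted). With a shared part of at least 50% of each cluster required, it was 0.39 ± 0.187, the largest of the alternatives. It was 0.20 ± 0.0876 within genes and 0.12 ± 0.0942 with the members' length make-up. In 3 other settings it was smaller than the spread. These were 0.03 ± 0.110 with at least 3 distinct reads, 0.07 ± 0.131 in the 41 nt around the mode and 0.07 ± 0.0865 with the members' read make-up.

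Selected clusters lay more often within 500 nt of the 5′ splice site, where an intron begins. In replicates 1, 2 and 3, 14.9%, 15.5% and 15.2% began within that distance, against 11.4%, 12.3% and 12.1% of comparison clusters, with no overlap between the groups. The difference was 3.26 points ± 0.233 in 3 of 3 replicates (SD, n = 3; exact sign-flip p = 0.25; 0.278 adjusted). Selected clusters of the 3 replicates share most of their places, so these 3 values are not independent measurements of position. Within 100 nt it was 0.162 points ± 0.297, smaller than the spread, and within 2000 nt it was 7.93 ± 1.55. At 500 nt it fell to 1.10 points ± 0.571 within genes and to 0.697 ± 0.619 with a shared part of at least 50% of each cluster. Selected clusters lay in shorter introns, with a median of 7931 nt ± 154 against 10741 nt ± 685 (SD, n = 3), and the part of intron length in the difference was not tested.

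At the 3′ splice site, where the polypyrimidine tract lies, 9.90%, 10.1% and 10.1% of selected clusters ended within 500 nt, against 9.20%, 9.93% and 10.3%. The groups overlapped, and the difference of 0.20 points ± 0.476 was smaller than the spread (SD, n = 3; exact sign-flip p = 0.75; 0.750 adjusted). Within 2000 nt it was 3.03 points ± 1.16, above 0 in each replicate, and within 100 nt it was -0.572 ± 0.348. Within genes, at 500 nt, it was -1.98 points ± 0.178. First introns held 33.7% ± 0.910 of selected and 33.6% ± 1.07 of comparison clusters. An exon of some GENCODE 44 transcript was overlapped by 8.96% ± 0.163 of selected and 6.45% ± 0.384 of comparison clusters (SD, n = 3). For clusters found in exactly 1 other replicate it was 7.54% ± 0.198. Selected clusters were longer, and the part of cluster length in this difference was not tested.

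Before any reweighting or filter, T-to-C conversion was no higher in the selected than in the comparison clusters. Per T position it was 9.93%, 10.6% and 10.6%, against 10.7%, 11.4% and 11.4%, a difference of -0.788 points ± 0.00570 (SD, n = 3; exact sign-flip p = 0.25; 0.278 adjusted). Within genes it was -0.611 ± 0.0679, and with a shared part of at least 50% of each cluster -0.794 ± 0.0574. With the members' length make-up it was -0.0709 points ± 0.0864, and among clusters with at least 3 distinct reads it turned to 0.130 ± 0.171. With the members' read make-up it was 0.0949 ± 0.0547, above 0 in 3 of 3 replicates. Against clusters found in exactly 1 other replicate it was 0.0257 ± 0.00865, also above 0 in each replicate. Reads with T-to-C made up 82.1%, 79.8% and 84.1% of reads, against 89.1%, 88.8% and 89.1%, and the difference of -7.00 points ± 1.99 (SD, n = 3; exact sign-flip p = 0.25; 0.278 adjusted) was -0.287 with the members' read make-up. No intron cluster held fewer than 4 reads, 4 reads with T-to-C or 2 conversion locations. The share therefore cannot be low in a cluster with few reads, and comparison clusters had fewer reads. The part of this floor in the difference was not tested.

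Selected clusters were less often repeated in the genome. The central 25 nt occurred more than 1 time in hg38 for 2.95%, 2.69% and 2.91% of selected clusters and for 4.81%, 4.57% and 3.59% of comparison clusters, without overlap. The difference was -1.47 points ± 0.691 (SD, n = 3; exact sign-flip p = 0.25; 0.278 adjusted), for a measure chosen after the data were seen. It turned to 0.346 ± 0.774 with a shared part of at least 50% of each cluster. Of clusters found in exactly 1 other replicate, 3.44% ± 0.314 were repeated, and the difference against them was -0.588 points ± 0.369. Clusters shorter than 25 nt were left out of this measure. The cytosine difference was 3.45 points among clusters whose central 25 nt occur 1 time.

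By gene, the sites were spread widely. Of 7383 gene names with intron clusters in all 3 replicates, 1848 (25%) had a site, and 1224 of these had 1. ANKRD11, a chromatin regulator, had most, with 20 sites over 223 kb, and 7.35%, 8.30% and 6.41% of its intron clusters were selected. GRB10, an adaptor of insulin receptor signalling, and THSD4, an extracellular matrix protein, had 13 each. ARID1A, a subunit of the BAF chromatin remodelling complex, and URB1, a ribosome biogenesis factor, had 9 each. DENND5A, a regulator of Rab GTPases, FOXJ3, a forkhead transcription factor, and SND1, an RNA-binding nuclease-domain protein, had 8 each, and TTC28 had 7. Of the 14 genes with 6, AGO2, an Argonaute protein, is first by name.

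Long genes can hold more sites, and a ranking by annotated gene length gave other leaders. Among the 46 genes with at least 5 sites, the median was 5 sites per 100 kb. THOP1, an oligopeptidase, led with 16.5 per 100 kb. Of its intron clusters, 4 of 25, 4 of 18 and 4 of 23 were selected (16.0%, 22.2% and 17.4%). Both rankings are by sites, so a high share in a leading gene follows in part from the choice. RCC2, a mitotic chromosome protein, followed with 15.2, ATG4B, a protease of autophagy, with 13.6, and SH3GL1, an endophilin, with 12.4. NKTR had 10.4, RANBP3 9.68 and HKR1 8.85. URB1 (11), ARID1A (10.1) and ANKRD11 (8.97) stood in both rankings. SND1 had 1.82 per 100 kb, and 3.20%, 3.43% and 3.30% of its intron clusters were selected, near the 2.40% to 2.50% of all intron clusters.

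Since the study's title concerns cGAS-STING signalling, a list of 22 genes of cytosolic nucleic acid sensing was read. Intron clusters in all 3 replicates were found for 6 of them and in no replicate for 11. Sites were found in 3 of these 6, with 4 sites in all, where 25% of all gene names with intron clusters in all 3 replicates had a site. With so few genes this says nothing particular of the list. MAVS, the mitochondrial adaptor of RNA sensing, had 2 sites with 80, 90 and 91 reads together. RNASEH2B, a subunit of RNase H2, had 1 site at chr13:50915264-50915416 with 43, 41 and 39 reads. ADAR, the adenosine deaminase that edits double-stranded RNA, had 1 site at chr1:154621977-154622287 with 32, 98 and 27 reads. MAVS and RNASEH2B were even between replicates, and ADAR was high in replicate 2.

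TBK1, the kinase downstream of STING, had 6, 10 and 8 intron clusters in replicates 1, 2 and 3, and none was selected. LMNB1, a lamin of the nuclear envelope, had 20, 19 and 17, and none was selected. Since 2.40% to 2.50% of all intron clusters were selected, no selected cluster among so few is near the background. CGAS itself had 1, 2 and 0 intron clusters and STING1 had 0 in each. MATR3 had 21, 23 and 29 intron clusters, with 0 sites. Transcript levels were not measured, so a gene without clusters may be little transcribed in these cells.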

How the data were processed

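One table of PAR-CLIP clusters per replicate was used. Per the file headers, the deposited columns hold whole-number counts of reads, distinct reads and conversion events, a fraction of reads with T-to-C, a log10 conversion specificity and a mode score; the last was not used. The build is hg38, per the submitters' processing notes; the aligner, caller and annotation release are not given in the sources used here. The sequences of all 282266 intron clusters equalled hg38. Clusters in all classes held 1649124, 1506682 and 1532602 reads in replicates 1, 2 and 3, which is not the depth of the libraries. Introns came from GENCODE 44. Base shares, 5-base words and conversion were summed over the clusters of a set in each replicate. Each difference was tested by an exact sign-flip test, two-sided, whose smallest p with 3 replicates is 0.25. Comparison clusters were reweighted by length, by reads or within genes as alternatives. Overlaps and weighting were tested on simulated data. Python 3.11.15, numpy 2.4.6, pandas 2.3.3 and pysam 0.24.0 were used.

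The members and lists were chosen with earlier results of these data known. Genes and sites were named by rule: the 10 sites with the largest geometric mean of reads, the 10 genes with most sites and with most per 100 kb (among genes with at least 5 sites), MATR3 and the cGAS-STING list. Genes tied in number of sites were taken in order of name.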

Additional observations from a re-analysis of the deposited data

How the results depend on the processing

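No paired analysis between groups was possible because there is only 1 group of samples; each test pairs selected and comparison clusters of the same replicate. Of 111 alternative values for 11 results, 99 kept their direction (for the number of clusters, stayed within 1.5 times). Of the 111, 33 leave out 1 replicate and reuse the values of the others. Where all 3 replicates had the same sign, such a value could not turn, so the count overstates how far the results were tried. The count also holds the held-out recurrence, which is a description. A shared part of at least 50% of each cluster cut the mean number of selected clusters per replicate from 2316 to 572; requiring more overlap leaves fewer by construction. Under that overlap the difference in the share near the 3′ splice site was -0.929 points and in repeated 25-mers 0.346. The conversion difference turned to 0.130 points with at least 3 distinct reads, to 0.0257 against clusters found in exactly 1 other replicate, and to 0.0949 with the members' read make-up. The difference near the 3′ splice site also turned to -0.104 with at least 3 distinct reads, -0.204 with the members' length make-up, -0.114 with their read make-up, -1.98 within genes and -0.572 within 100 nt, and without 1 replicate it ranged from -0.0509 to 0.423. The causes were not tested. Weighting by reads, members with a common stretch and the 25-mer measures were chosen after seeing the data. The repeat-masked share and ATCTT outside repeats were not run, since the genome used here marks no repeats. No adjusted p could fall under 0.05 with 3 replicates.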
